A study of Homo sapiens with 14 samples.

Results

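The histidine, phenylalanine and tryptophan tRNAs, tRNA-His-GTG, tRNA-Phe-GAA and tRNA-Trp-CCA, each named with its anticodon, were examined as targets of TRMT2A, the human enzyme that methylates uridine 54 of cytosolic tRNAs. Their genes were taken from the authors' supplementary list of TRMT2A crosslink clusters, as the entries typed as tRNA whose names begin tRNA-His, tRNA-Phe or tRNA-Trp. Clusters under 40 nt apart were joined, which gave 10 loci from 16 clusters, namely 2 tRNA-His, 6 tRNA-Phe and 2 tRNA-Trp loci, of 248 tRNA loci and 316 loci in all. The list holds only sites with at least 5 counts in at least 3 of the 5 experiments, so the loci had partly been selected on the counts that are described here.

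Crosslinks were measured in 14 libraries from established human cell lines, HEK293 (embryonic kidney) and HAP1 (near-haploid). For FICC-Seq, 3 samples of each line received 100 µM 5-fluorouracil (5FU) during 24 h before their own TRMT2A was immunoprecipitated. The labels call the condition of every sample untreated, although their protocol gives this exposure. For iCLIP, endogenous TRMT2A of 3 UV-crosslinked samples of each line was recovered with the antibody used for FICC-Seq. For miCLIP, 2 samples of HEK293 cells were transfected with FLAG-tagged TRMT2A in which a glutamate of the catalytic domain was replaced by alanine, and were harvested 24 h later for recovery with a FLAG antibody. The miCLIP bait was therefore an introduced mutant protein, so mutation, tag, antibody and transfection cannot be told apart in any comparison with miCLIP, and neither can UV light and 5FU between iCLIP and FICC-Seq. No library without immunoprecipitated TRMT2A was among the samples.

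TRMT2A adds a methyl group to carbon 5 of the uridine that opens the T-loop, the hairpin loop near the 3′ end of the tRNA, in which the adenosine at position 58 is also methylated in many tRNAs. In the normal reaction the enzyme is joined to the uridine only briefly. A fluorinated uridine or a disabled catalytic base keeps it joined, and reverse transcription then tends to stop beside the joined base, so that the end of a cDNA marks the site. UV light can link the enzyme to any nucleotide it touches. Methylated bases that disturb pairing, such as 1-methyladenosine at position 58, can also stop the transcriptase. Of the 3 tRNAs, tRNA-Phe is known for its heavily modified guanosine 37 beside the anticodon, and tRNA-His for a guanosine that is added before position 1 after transcription.

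The sequences of the 6 distinct genes, read 5′ to 3′ from hg19, are shown because they decide which reads can be told apart. Capitals mark positions 53 to 58, from the last base of the T-stem, through T54, to A58.
tRNA-His-GTG-1-1 and 1-7: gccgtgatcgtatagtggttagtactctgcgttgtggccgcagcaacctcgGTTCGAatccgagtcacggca
tRNA-Phe-GAA-1-3, 1-4, 1-5 and 1-6: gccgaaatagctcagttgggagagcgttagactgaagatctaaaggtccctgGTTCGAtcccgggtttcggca
tRNA-Phe-GAA-2-1: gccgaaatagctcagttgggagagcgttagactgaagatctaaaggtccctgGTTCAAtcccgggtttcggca
tRNA-Phe-GAA-3-1: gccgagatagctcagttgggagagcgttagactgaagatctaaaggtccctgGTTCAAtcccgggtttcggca
tRNA-Trp-CCA-2-1: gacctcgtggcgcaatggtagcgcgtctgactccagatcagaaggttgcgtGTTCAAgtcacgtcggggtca
tRNA-Trp-CCA-3-3: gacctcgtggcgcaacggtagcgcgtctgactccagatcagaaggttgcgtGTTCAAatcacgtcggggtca
Positions follow the usual tRNA numbering from the 5′ end, in which tRNA-His lacks position 47 and tRNA-Trp position 17. From the tRNA-Phe-GAA-1 sequence, tRNA-Phe-GAA-2-1 differed by G57A and tRNA-Phe-GAA-3-1 by A6G and G57A. From tRNA-Trp-CCA-2-1 to 3-3 the changes were T16C and G59A. The anticodon read from each gene was that of its name. All 10 genes had G53, T54 and A58, and all 7 pairs of the acceptor stem and 5 of the T-stem were complete. Base 37, the base after the anticodon, was G in all 10 genes.

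In hg19, the tRNA-His genes were tRNA-His-GTG-1-1 at chr1:145396881-145396952 and 1-7 at chr15:45490804-45490875, both on the minus strand. The tRNA-Phe genes, all on the minus strand, were tRNA-Phe-GAA-1-3 at chr11:59324970-59325042, 1-4 at chr12:125412389-125412461, 1-5 at chr13:95201904-95201976, 1-6 at chr19:1383361-1383433, 2-1 at chr11:59333853-59333925 and 3-1 at chr6:28775610-28775682. The tRNA-Trp genes were tRNA-Trp-CCA-2-1 at chr17:19411494-19411565 and 3-3 at chr17:8089676-8089747, on the plus strand. The annotation placed 2 of the genes inside other genes of the same strand. tRNA-Trp-CCA-2-1 lies within SLC47A1, a transporter gene, and tRNA-His-GTG-1-7 lies within SHF and in an exon of a long non-coding RNA.

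Whether a read could be assigned to a single one of these genes differed among them. The tRNA-His sequence occurred at 9 places in hg19, the tRNA-Phe-GAA-1 sequence at 6 and that of tRNA-Trp-CCA-3-3 at 3, whereas tRNA-Phe-GAA-2-1, tRNA-Phe-GAA-3-1 and tRNA-Trp-CCA-2-1 occurred once. Reads that do not reach past an identical gene cannot be told apart, and the authors kept only reads that mapped uniquely. When the stretch from position 54 to a mature CCA end was matched to hg19 with up to 2 mismatches, none of the 10 loci was its single best place. Only tRNA-Phe-GAA-2-1 was among the best places, tied with others at 2 mismatches. The bases that follow the gene differ between loci, as these 3′ ends show, in which capitals are the 10 genomic bases after position 73 and lower case is positions 54 to 73.
tRNA-Phe-GAA-2-1 end: ttcaatcccgggtttcggcaGCGCTTCCGT
tRNA-Phe-GAA-3-1 end: ttcaatcccgggtttcggcaGTTGCATTTT
tRNA-Trp-CCA-3-3 end: ttcaaatcacgtcggggtcaGCGGCTATTT
The first 20 bases of the 2 tRNA-Phe ends were identical, so a read begun in the T-loop could separate them only by the bases after the gene. Counts at a locus are thus counts of assignable reads, not of all crosslinks to that tRNA.

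A count is 1 cDNA after removal of PCR duplicates. The 6 FICC-Seq libraries held 15982 to 38957 counts, the 6 iCLIP libraries 7002 to 17432 and the 2 miCLIP libraries 39024 and 104605. Counts at a locus were summed from 100 nt before to 25 nt after its clusters and are also given scaled by the total of the library, as counts per 1000000 (CPM). A count of 0 allows up to 3 counts, or 77.01 to 188 CPM in FICC-Seq and 172 to 428 CPM in iCLIP, a limit that covers counting error only. Replicate 2 of FICC-Seq stood apart from replicates 1 and 3 in both cell lines. Over 235 tRNA loci, the mean correlation of its log CPM with the miCLIP libraries was 0.32 in HEK293 and 0.29 in HAP1, against 0.10 to 0.14 for the other 4 FICC-Seq libraries. According to the labels, both replicates 2 carried the same in-line barcode, which no other library carried. Values without these 2 libraries are given beside the results that rest on them. That alternative was chosen after seeing the data.

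Over all libraries, the tRNA-Phe loci held 3060 counts, the tRNA-Trp loci 2050 and the tRNA-His loci 753. Among 22 tRNA isotypes, as the list names them, the mean CPM of tRNA-His ranked 21 in FICC-Seq, 22 in iCLIP and 20 in miCLIP. tRNA-Trp ranked 18, 20 and 15, and tRNA-Phe 14, 17 and 18. By mean CPM, tRNA-Phe was highest and tRNA-His lowest in FICC-Seq and iCLIP, and in miCLIP tRNA-Trp and tRNA-Phe were close. In FICC-Seq the place of tRNA-Trp above tRNA-His rested on the replicates 2. In replicates 1 and 3, tRNA-His was at 84.3 and 141 CPM in HEK293 and at 0 and 180 in HAP1, against 0 and 0 and then 33.6 and 0 for tRNA-Trp. The isotypes differ in their number of loci, and per locus the mean CPM of tRNA-Trp in miCLIP, 6484, was above that of tRNA-Phe, 1956, and of tRNA-His, 2464.

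**Figure D1:**
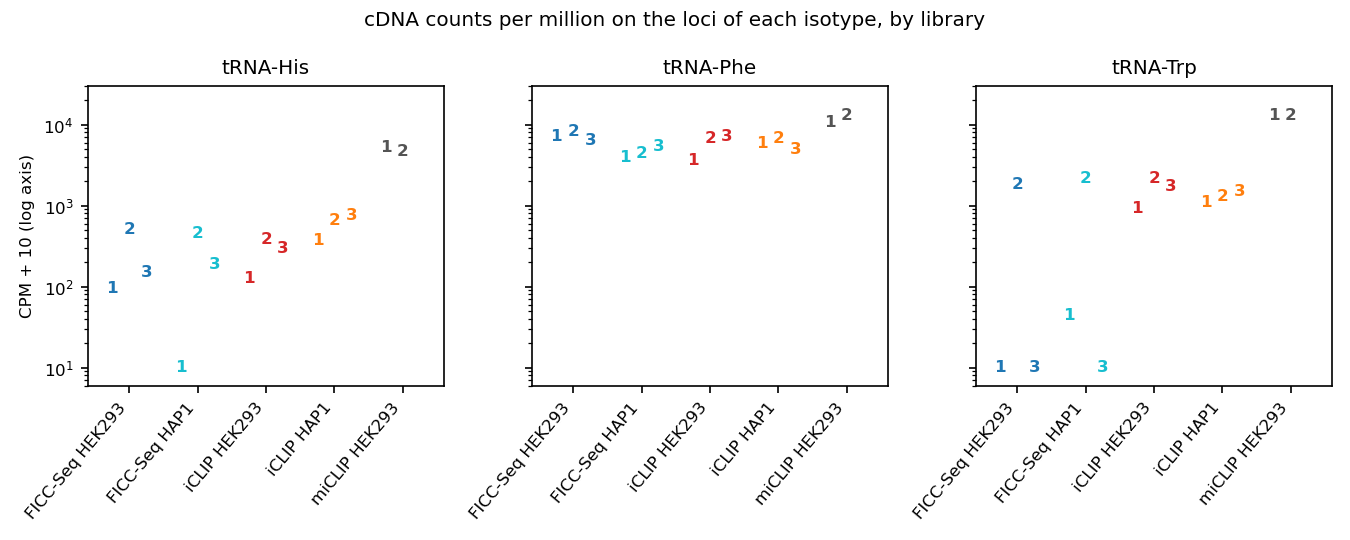
CPM plus 10 on the loci of each isotype (log axis), by experiment, with each library drawn as its replicate number. tRNA-Trp in FICC-Seq was at 1815 and 2166 CPM in the replicates 2 and at 0 to 33.6 in the other 4 libraries, whereas tRNA-Phe stayed between 3557 and 8259 CPM in all FICC-Seq and iCLIP libraries.

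tRNA-Trp was recovered in FICC-Seq almost only by the replicates 2. In FICC-Seq of HEK293, replicates 1, 2 and 3 held 0, 29 and 0 tRNA-Trp counts, and in HAP1 they held 1, 78 and 0. The 6 iCLIP libraries held 16, 17 and 12 counts in HEK293 and 12 in each replicate of HAP1, although they were shallower, and the miCLIP libraries held 507 and 1354. In CPM, iCLIP ran from 918 to 2128, all above the other 4 FICC-Seq libraries, and the FICC-Seq replicates 2 were at 1815 in HEK293 and 2166 in HAP1. Both loci showed this. tRNA-Trp-CCA-3-3 had 0, 22 and 0 counts in FICC-Seq of HEK293 and 1, 53 and 0 in HAP1, against 8 to 15 in each iCLIP library, and tRNA-Trp-CCA-2-1 had 0, 7 and 0 and then 0, 25 and 0, against 1 to 5.

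The replicates 2 supplied 107 of the 108 FICC-Seq counts of tRNA-Trp, or 99.1%, the highest share among the 22 isotypes. They supplied 30.1% of all FICC-Seq counts. The share was 64.9% for tRNA-His (24 of 37 counts, the fourth highest) and 30.1% for tRNA-Phe. Among 207 tRNA loci with at least 20 FICC-Seq counts, the median share was 31.2% and 4 loci lay over 90%, 2 of which were the tRNA-Trp loci. At genes of identical sequence that the list does not hold, the replicates 2 supplied 32 of 32 FICC-Seq counts of tRNA-Trp and 3 of 3 of tRNA-His. There they also supplied 12 of 16 counts of tRNA-Phe, unlike their 30.1% at the listed tRNA-Phe loci.

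**Figure D2:**
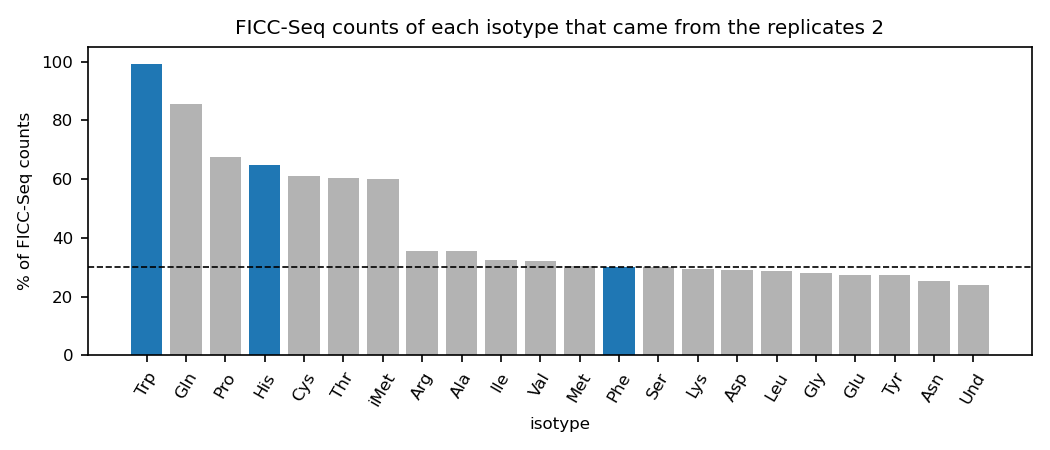
Percentage of the FICC-Seq counts of each isotype that came from replicate 2 of HEK293 and HAP1 together, with the 3 tRNAs in blue and the share of these libraries in all FICC-Seq counts, 30.1%, as a dashed line. tRNA-Trp stood highest at 99.1%, tRNA-His at 64.9% and tRNA-Phe on the line at 30.1%.

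The comparison of tRNA-Trp between FICC-Seq and iCLIP depended on the replicates 2. On log2(CPM + 10), FICC-Seq was lower by a mean difference of -4.22, which did not pass the exact permutation test within cell lines (p = 0.075, adjusted p = 0.103 over 22 isotypes). Of the 22 isotypes, 63.6% passed this test in either direction. Without the replicates 2, the difference was -6.59. These libraries held 107 of the 108 counts, so that a lower value follows from leaving them out, and it is given with no test. The other 2 FICC-Seq libraries of HEK293 then held no count, which allows up to 57.5 CPM over both, and the pooled iCLIP level of 1388 CPM was at least 24.1-fold higher. In HAP1, the other 2 FICC-Seq libraries held 1 count, and the pooled iCLIP level was 86.9-fold higher, with a 95% exact interval of 14.6 to 3525 for counting error.

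Locus by locus, FICC-Seq was compared with iCLIP by a fit with limma to all 281 loci that had enough counts, among them all 10 loci described here. A locus needed these counts in as many libraries as the smallest group held, the 2 of miCLIP. Without miCLIP in the fit, tRNA-His-GTG-1-1 and 1-7, tRNA-Phe-GAA-1-6 and tRNA-Trp-CCA-2-1 fell below this low-count rule and were not tested. tRNA-Trp-CCA-3-3 was lower in FICC-Seq by a log2 fold change of -4.77 ± 1.27 (SE) in HEK293 (limma, adjusted p = 0.00493). It was lower by -3.90 ± 1.21 (SE) in HAP1 (limma, adjusted p = 0.0125). FICC-Seq replicates 1 and 3 together held 0 tRNA-Trp counts in HEK293 and 1 in HAP1. The sizes of the tRNA-Trp folds thus depend on the small count that the fit adds, and they are not ratios of the counts. tRNA-Trp-CCA-2-1 was lower in HEK293, by -3.51 ± 1.25 (SE), with an adjusted p of 0.0243 in limma. In HAP1 its value was -2.78 with an adjusted p of 0.0751 in limma. There it passed within 10 nt of the clusters (-3.29, adjusted p = 0.00621) and without FICC-Seq HEK293 replicate 2 in the fit (-2.80, adjusted p = 0.0415). It also passed without FICC-Seq HAP1 replicate 2 (-4.67, adjusted p = 0.00165), which held all 25 of its FICC-Seq counts in that line. The call for tRNA-Trp-CCA-3-3 in HEK293 held under every alternative run, with log2 fold changes of -6.63 to -3.80 when single libraries were left out. In HAP1 it was lost without FICC-Seq HAP1 replicate 3 (-2.17, adjusted p = 0.157) and with the replicate number as a block (-2.36, adjusted p = 0.0816). The call for tRNA-Trp-CCA-2-1 in HEK293 was lost without any one of FICC-Seq HEK293 replicates 1 and 3 and iCLIP HEK293 replicates 1 and 3, with adjusted p between 0.0625 and 0.108. Without the replicates 2, the fitted values were -6.57 in HEK293 and -5.86 in HAP1 for tRNA-Trp-CCA-3-3 and -4.90 and -4.66 for tRNA-Trp-CCA-2-1. They depend on the small count that the fit adds, since all the FICC-Seq libraries that remained were at 0 except for 1 count of tRNA-Trp-CCA-3-3 in HAP1.

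The few FICC-Seq counts of tRNA-Trp were spread along the tRNA. All but 1 of them came from the replicates 2, which stood closer to miCLIP than the other FICC-Seq libraries and share a barcode, and whether reads passed between libraries was not tested. Of 108 counts, 16.7% lay at positions 53 and 54 (95% exact binomial interval 10.2 to 25.1) and 27.8% at position 58 (19.6 to 37.2). Positions 27 to 43, the anticodon arm, held 27.6% in HEK293 and 36.7% in HAP1. tRNA-Trp-CCA-2-1 had only 4 of 32 FICC-Seq counts at positions 53 and 54, and its most counted positions in HAP1 were 37, 20 and 35. In iCLIP, 70.4% of 81 counts lay at position 58 (59.2 to 80.0) and 4.9% at positions 53 and 54 (1.4 to 12.2). miCLIP divided its 1861 counts between positions 53 and 54 with 31.9%, position 58 with 25.4% and the anticodon arm with 19.3%. These intervals cover counting error only.

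The test of these shares had little power for tRNA-Trp, since only the replicates 2 of FICC-Seq had the 5 counts that a share required. At positions 53 and 54 they were at 17.2% in HEK293 and 16.7% in HAP1, above the 6 iCLIP libraries at 0 to 8.33%. The exact permutation test gave p = 0.0625, the smallest it allowed, with an adjusted p of 0.0764. At position 58, they were at 41.4% and 21.8% and the iCLIP libraries at 50.0 to 88.2% (exact permutation test, p = 0.0625, adjusted p = 0.115).

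tRNA-Phe, by contrast, was recovered by every library. The FICC-Seq libraries held 168, 132 and 181 counts in HEK293 and 115, 158 and 209 in HAP1. The iCLIP libraries held 62, 54 and 50 counts in HEK293 and 64, 63 and 40 in HAP1, and the miCLIP libraries 411 and 1353. Scaled by depth, the methods overlapped, at 5888 ± 1666 CPM (SD, n = 6) in FICC-Seq and 5823 ± 1358 CPM (SD, n = 6) in iCLIP. The difference on log2(CPM + 10) was 0.0050 and did not pass the exact permutation test (p = 0.98). Scaled to the counts on tRNA loci alone it was -0.56 and passed (exact permutation test, adjusted p = 0.0206).

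The near-equal totals of tRNA-Phe hid a different makeup. A single locus, tRNA-Phe-GAA-2-1, held 113, 75 and 120 counts in FICC-Seq of HEK293 and 70, 104 and 162 in HAP1. In iCLIP it held 19, 16 and 20 counts in HEK293 and 30, 19 and 17 in HAP1. It supplied 56.8 to 77.5% of the tRNA-Phe counts of a FICC-Seq library, 29.6 to 46.9% of an iCLIP library, and 18.98% and 20.6% of the miCLIP libraries. The shares of the 3 methods did not overlap.

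The reverse held for tRNA-Phe-GAA-3-1, which differs from it by A6G within the gene and also in the bases after the gene. The stretch from position 54 to a mature CCA end fits tRNA-Phe-GAA-2-1 with 2 mismatches and tRNA-Phe-GAA-3-1 with over 2. How far this mapping limit shapes the counts of the 2 loci was not tested. tRNA-Phe-GAA-3-1 held 5, 1 and 3 counts in FICC-Seq of HEK293 and 1, 4 and 4 in HAP1, against 11, 10 and 5 and then 15, 11 and 6 in the shallower iCLIP libraries. Its share of the tRNA-Phe counts was 0.8 to 3.0% in FICC-Seq, 10.0 to 23.4% in iCLIP and 9.0% and 8.9% in miCLIP. For each count of tRNA-Phe-GAA-3-1 there were 22.6 to 75.0 of tRNA-Phe-GAA-2-1 in a FICC-Seq library, 1.60 to 4.00 in an iCLIP library, and 2.11 and 2.33 in miCLIP.

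In the fit, tRNA-Phe-GAA-3-1 was lower in FICC-Seq than in iCLIP by a log2 fold change of -3.44 ± 0.62 (SE) in HEK293 (limma, adjusted p = 0.000206). In HAP1 it was lower by -4.10 ± 0.60 (SE), with an adjusted p of 3.28e-05 in limma. Both calls held under every alternative run. tRNA-Phe-GAA-2-1 had 0.58 ± 0.36 (SE) in HEK293 and -0.04 ± 0.34 (SE) in HAP1, with adjusted p of 0.191 and 0.923 in limma. With library totals as the only scaling, its value in HEK293 was 1.46 and passed (adjusted p = 0.0042).

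The 4 loci of the tRNA-Phe-GAA-1 sequence lay between these. tRNA-Phe-GAA-1-4 held 12 to 21 counts in every FICC-Seq library and 7 to 18 in every iCLIP library. It was lower in FICC-Seq by -1.42 ± 0.46 (SE) in HEK293 and by -1.48 ± 0.46 (SE) in HAP1, with adjusted p of 0.0159 and 0.0129 in limma. These calls were lost with library totals as the only scaling (adjusted p of 0.288 and 0.13). In HEK293 the call was also lost with positions of a single count left out (adjusted p = 0.0713). There the call was also lost without FICC-Seq replicate 3 or iCLIP replicate 1 or 3, with adjusted p of 0.0772, 0.0877 and 0.0586, and in HAP1 without iCLIP replicate 2, with 0.0623. tRNA-Phe-GAA-1-3, 1-5 and 1-6 did not pass in either line. In HAP1, tRNA-Phe-GAA-1-3 passed with the replicate number as a block (-1.43, limma, adjusted p = 0.0468), within 10 nt of the clusters (-2.06, adjusted p = 0.0144), without iCLIP HAP1 replicate 3 (-1.96, adjusted p = 0.0295) and without the replicates 2 (-1.65, adjusted p = 0.0472). That iCLIP library held 1 count of the locus, against 6 and 5 in the others, so leaving it out lowers the value. In HAP1, tRNA-Phe-GAA-1-5 was at -0.57, and at -2.11 without iCLIP HAP1 replicate 1. That library held 0 counts of the locus, against 14 and 8 in the others. A lower value follows from leaving it out, and it is given with no test.

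Over the 10 loci, 4 were lower in FICC-Seq and none was higher in HEK293, and the numbers were the same in HAP1. Of the 244 tRNA loci tested, 31.1% were lower and 22.1% higher in HEK293, and 29.9% were lower and 20.9% higher in HAP1, against 4 of 10 here. tRNA-Phe-GAA-1-4, tRNA-Phe-GAA-3-1 and tRNA-Trp-CCA-3-3 were called in both lines, tRNA-Trp-CCA-2-1 in HEK293 and tRNA-His-GTG-1-7 in HAP1. The median log2 fold change was -4.14 in HEK293 and -3.34 in HAP1 for tRNA-Trp, -1.11 and -1.20 for tRNA-Phe and -1.38 and -2.68 for tRNA-His, against -0.07 and -0.29 for all tRNA loci. The sizes for tRNA-Trp depend on the small count that the fit adds. Scaling by library totals alone moved the median of all tRNA loci to 0.77 and 0.17.

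**Figure D3:**
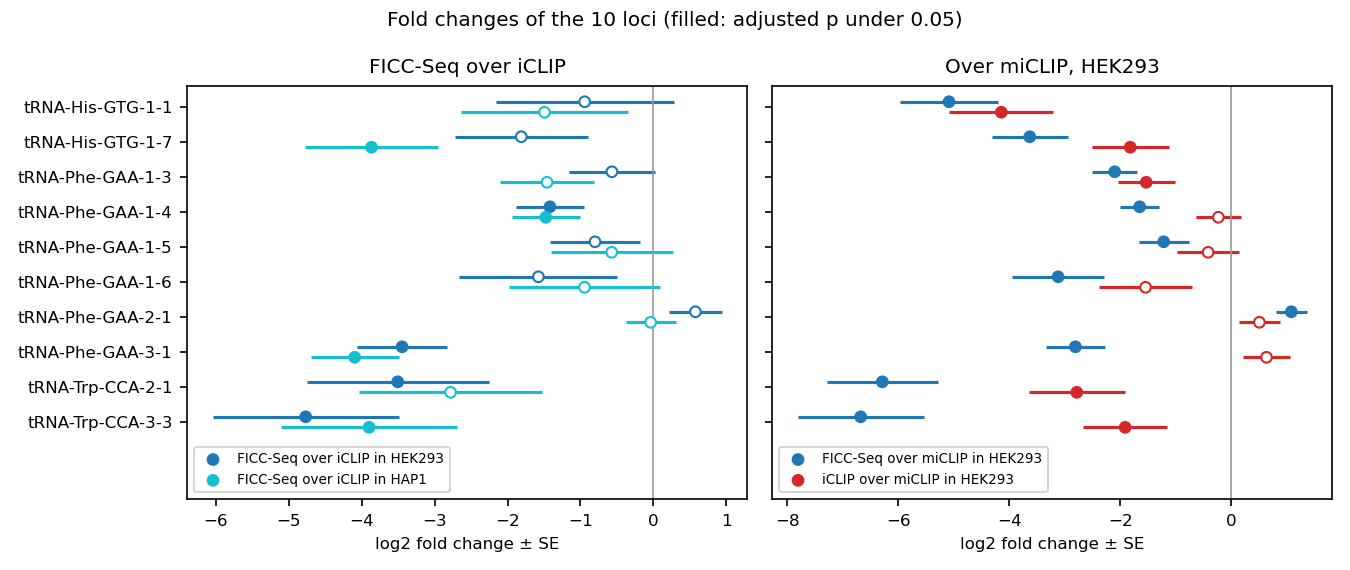
Log2 fold changes with standard errors of the 10 loci, FICC-Seq over iCLIP in each cell line (left) and FICC-Seq and iCLIP over miCLIP in HEK293 (right), filled where the limma adjusted p was under 0.05. tRNA-Phe-GAA-2-1 had the highest value of the 10 loci in FICC-Seq over iCLIP and over miCLIP, and the tRNA-Trp loci and tRNA-Phe-GAA-3-1 were among the lowest over iCLIP.

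The positions of the tRNA-Phe crosslinks separated the methods far more clearly than their number. In FICC-Seq, 79.8%, 80.3% and 85.6% of the counts of the HEK293 libraries and 80.0%, 74.1% and 86.1% of those of the HAP1 libraries lay at positions 53 and 54, the target uridine and the base before it. In iCLIP the shares were 25.8%, 20.4% and 10.0% in HEK293 and 7.81%, 19.05% and 15.0% in HAP1. The lowest FICC-Seq library was thus above the highest iCLIP library. The mean difference was 64.6 percentage points (81.0% ± 4.45, SD, n = 6, against 16.3% ± 6.75, SD, n = 6; exact permutation test within cell lines, p = 0.005, adjusted p = 0.00688). The p was the smallest the test allows. A difference was called for 77.3% of the 22 isotypes.

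Position 58 had the opposite order. Its share of the tRNA-Phe counts was 16.1%, 12.9% and 11.0% in FICC-Seq of HEK293 and 8.70%, 6.33% and 11.0% in HAP1, against 35.5%, 33.3% and 28.0% and then 40.6%, 41.3% and 42.5% in iCLIP. The groups did not overlap, and the mean difference was -25.9 percentage points (exact permutation test, p = 0.005, adjusted p = 0.022). This was called for 31.8% of the 22 isotypes. The call was lost without FICC-Seq HEK293 replicate 3 (adjusted p = 0.055), without both replicates 2 (adjusted p = 0.1) and with the replicate number as a block (adjusted p = 0.0764), where the difference stayed between -25.9 and -25.2.

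All 6 tRNA-Phe loci had most of their FICC-Seq counts at the target, from 80.6 to 85.0% of each locus, including the rarely counted tRNA-Phe-GAA-3-1 with 15 of 18. They were less alike in iCLIP. tRNA-Phe-GAA-3-1 had 0 of its 58 iCLIP counts at positions 53 and 54 (95% exact binomial interval 0 to 6.2%) and 41 at position 58 (70.7%, 57.3 to 81.9). tRNA-Phe-GAA-2-1, with the same T-loop, had 10.7% of 121 counts at positions 53 and 54 and 27.3% at position 58, and a further peak at position -7, before the gene, with 10 counts in HEK293 and 13 in HAP1. tRNA-Phe-GAA-1-4 had 35.3% at positions 53 and 54 and 16.2% at position 58, while tRNA-Phe-GAA-1-5, with the identical gene, had 17.9% and 46.4%.

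**Figure D4:**
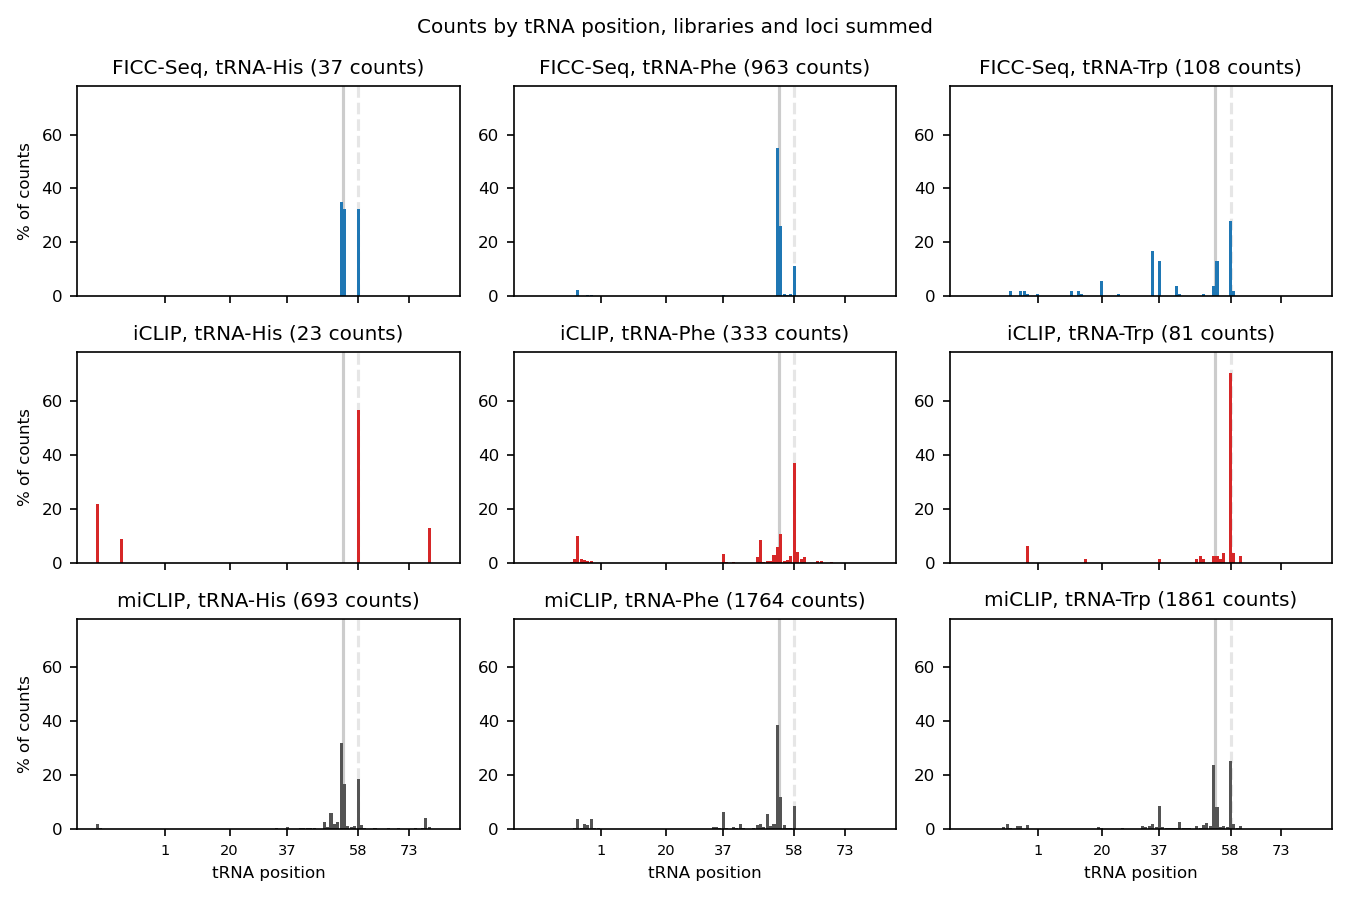
Percentage of the counts of each isotype at each tRNA position (libraries and loci summed), by method in rows and isotype in columns, with a solid line between positions 53 and 54 and a dashed line at position 58. tRNA-Phe in FICC-Seq had 81.4% of its counts at positions 53 and 54 and tRNA-Trp 16.7%, and position 58 was the most counted in all 3 tRNAs in iCLIP.

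tRNA-His was recovered in few counts in FICC-Seq and iCLIP. FICC-Seq of HEK293 held 2, 8 and 4 counts and of HAP1 0, 16 and 7, and iCLIP held 2, 3 and 2 in HEK293 and 4, 6 and 6 in HAP1, so that 7 of these 12 libraries held 4 counts or fewer. In CPM this was 225 ± 202 (SD, n = 6) in FICC-Seq and 420 ± 233 (SD, n = 6) in iCLIP, which overlapped. The difference on log2(CPM + 10) was -1.45 and did not pass the exact permutation test (p = 0.155, adjusted p = 0.179). Scaled to the counts on tRNA loci it was -2.07 and passed (exact permutation test, adjusted p = 0.0388), and it also passed without FICC-Seq HEK293 replicate 2 (adjusted p = 0.0481). That library had the highest tRNA-His CPM of the FICC-Seq libraries, so a lower value follows from leaving it out. Without both replicates 2, which held 24 of the 37 counts, the difference was -2.36, given with no test.

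The 2 tRNA-His genes have the same sequence and were not counted alike. tRNA-His-GTG-1-1 held 0, 5 and 3 counts in FICC-Seq of HEK293 and 0, 10 and 7 in HAP1, and tRNA-His-GTG-1-7 held 2, 3 and 1 and then 0, 6 and 0. In iCLIP of HAP1 they held 0, 4 and 3 and 4, 2 and 3 counts. Those of tRNA-His-GTG-1-1 all lay outside the gene, 4 at position -20 and 3 at position 79. tRNA-His-GTG-1-7 was lower in FICC-Seq than in iCLIP in HAP1 (-3.86 ± 0.92, SE, limma, adjusted p = 0.00243). It kept this call in the 22 alternatives that tested it. Without miCLIP in the fit it fell below the low-count rule and was not tested. In HEK293 its value was -1.81 with an adjusted p of 0.102 in limma, and without the replicates 2, which held 3 of its 6 counts there, it was -2.16. It passed without FICC-Seq HAP1 replicate 2 in the fit (-1.80, limma, adjusted p = 0.0441). tRNA-His-GTG-1-1 had -0.94 and -1.49, with adjusted p of 0.549 and 0.31 in limma.

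Of the 37 FICC-Seq counts of tRNA-His, 67.6% lay at positions 53 and 54 (95% exact binomial interval 50.2 to 82.0) and the other 32.4% at position 58. None of its 23 iCLIP counts lay at positions 53 and 54 (0 to 14.8%), while 56.5% lay at position 58 and the rest before or after the gene. Only 3 FICC-Seq and 2 iCLIP libraries had the 5 counts that a share required, and the exact permutation test could not give a p below 0.333. In miCLIP, 48.9% of 693 counts were at positions 53 and 54 and 18.6% at position 58, with 48.8% and 49.0% at positions 53 and 54 in the 2 libraries.

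miCLIP recovered all 10 loci in both libraries. tRNA-Trp was at 12992 and 12944 CPM, tRNA-Phe was at 10532 and 12934 CPM, and tRNA-His was at 5151 and 4703 CPM. Against miCLIP in HEK293, FICC-Seq was lower at 9 of the 10 loci and higher at 1 (limma), where 43.0% of all tRNA loci were lower and 33.6% higher. Both tRNA-His loci, tRNA-Trp-CCA-2-1 and tRNA-Phe-GAA-1-6 met the low-count rule only with the miCLIP libraries. Lower values against miCLIP at these loci therefore follow in part from how they were admitted. The log2 fold changes were -6.68 for tRNA-Trp-CCA-3-3, -6.29 for tRNA-Trp-CCA-2-1, -5.09 for tRNA-His-GTG-1-1 and -3.63 for tRNA-His-GTG-1-7. The sizes for tRNA-Trp depend here too on the small count that the fit adds. The tRNA-Phe loci that were lower ranged from -3.12 (tRNA-Phe-GAA-1-6) to -1.22 (tRNA-Phe-GAA-1-5). The exception was tRNA-Phe-GAA-2-1, which was higher in FICC-Seq by 1.09 ± 0.27 (SE, limma, adjusted p = 0.00139), a call that was lost without iCLIP HEK293 replicate 3 in the fit (adjusted p = 0.0551) and when positions with a single count were left out (0.49, adjusted p = 0.109). That of tRNA-Phe-GAA-1-5 was lost without FICC-Seq HEK293 replicate 1 (adjusted p = 0.0667) or miCLIP replicate 2 (adjusted p = 0.125).

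iCLIP was lower than miCLIP at 5 of the 10 loci and higher at none (limma), against 21.7% lower and 23.4% higher of all tRNA loci. The 5 were tRNA-His-GTG-1-1 (-4.14), tRNA-Trp-CCA-2-1 (-2.78), tRNA-Trp-CCA-3-3 (-1.91), tRNA-His-GTG-1-7 (-1.82) and tRNA-Phe-GAA-1-3 (-1.53). Of these, both tRNA-His loci and tRNA-Trp-CCA-2-1 met the low-count rule only with the miCLIP libraries, so their lower values follow in part from it. tRNA-His-GTG-1-1 kept its call under every alternative run. The count fell to 2 without iCLIP HEK293 replicate 1 or miCLIP replicate 2 and to 3 without FICC-Seq HEK293 replicate 3. It was also 3 with the replicate number as a block, which lost tRNA-Trp-CCA-3-3 (-1.74, adjusted p = 0.0873) and tRNA-His-GTG-1-7 (-1.59, adjusted p = 0.0693). It was 1 by limma trend on log2(CPM + 50) and 8 with library totals as the only scaling. tRNA-Phe-GAA-3-1 had a log2 fold change of 0.64 (limma, adjusted p = 0.227) and was lower in FICC-Seq than in miCLIP by -2.81 (limma, adjusted p = 9.6e-05). The 2 comparisons share the miCLIP libraries.

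Within the genes, miCLIP showed sites away from the T-loop that differed by locus. Position 37, beside the anticodon, held 38 of the 97 miCLIP counts of tRNA-Phe-GAA-1-6 and 3.27 to 8.59% of those of the 3 loci of identical sequence. It held 100 of 1180 counts in tRNA-Trp-CCA-3-3 and 60 of 681 in tRNA-Trp-CCA-2-1. It held 3 of 357 in tRNA-Phe-GAA-2-1 and 0 of 157 in tRNA-Phe-GAA-3-1 (95% exact binomial interval 0 to 2.32%), which also have G there. The share was as low in tRNA-His, which has G there as well, with 5 of 476 in tRNA-His-GTG-1-1 and 0 of 217 in tRNA-His-GTG-1-7 (0 to 1.69%). The anticodon arm held 19.3% of the miCLIP counts of tRNA-Trp, 12.1% of tRNA-Phe and 2.45% of tRNA-His. Before the gene, position -3 of tRNA-Phe-GAA-1-5 held 66 counts, position -7 of tRNA-Phe-GAA-2-1 held 34 and position -7 of tRNA-Phe-GAA-1-3 held 28. In tRNA-Trp, position -9 of tRNA-Trp-CCA-3-3 held 34 and position -3 of tRNA-Trp-CCA-2-1 held 26, and position -20 of tRNA-His-GTG-1-1 held 12. Before position 1 lay 12.4% of the miCLIP counts of tRNA-Phe, 6.99% of tRNA-Trp and 2.74% of tRNA-His. Such positions lie outside the mature tRNA.

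No difference between HEK293 and HAP1 was called. In limma, 0 of the 10 loci differed between the cell lines in FICC-Seq, where 14.8% of all tRNA loci did, and 0 in iCLIP, where 0.82% did. The fold of FICC-Seq over iCLIP differed between the lines at 0 of the 10 loci and at 0.0% of all tRNA loci. Per isotype, the difference of HEK293 from HAP1 on log2(CPM + 10) was -0.10 for tRNA-His, 0.31 for tRNA-Phe and -0.28 for tRNA-Trp, and none of the 22 isotypes passed the exact permutation test (0.0%).

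The 3 tRNAs were then compared with each other within libraries, by an exact test that exchanges their values in each library, adjusted over all 231 pairs of isotypes. In FICC-Seq, tRNA-Phe was above tRNA-His by 5.39 and above tRNA-Trp by 6.25 on log2(CPM + 10), each in 6 of 6 libraries (exact permutation test, adjusted p = 0.0354 for both). tRNA-His was above tRNA-Trp by 0.86 on this log scale, although its mean CPM was lower, and neither was higher throughout (exact permutation test, p = 0.562). Of all pairs, 88.3% were called. In iCLIP, all 3 pairs were called, with tRNA-Phe above tRNA-Trp by 2.03 and above tRNA-His by 3.94, and tRNA-Trp above tRNA-His by 1.91 (exact permutation test, adjusted p = 0.0382 for each). Of all pairs, 81.8% were called. With 6 libraries the smallest p was 0.0312, so that every such call was lost when a library was left out. The share at positions 53 and 54 was called for none of the pairs (0.0%), but most tests among the 3 tRNAs could not have called one. In FICC-Seq, tRNA-His and tRNA-Phe both had a share in 3 libraries, and each pair with tRNA-Trp in 2. The exact permutation test gave p = 0.25 and 0.5 there, the smallest it allowed. In iCLIP, the pairs with tRNA-His had 2 libraries and the same limit of 0.5. The share in iCLIP was 11.2 percentage points higher in tRNA-Phe than in tRNA-Trp (exact permutation test, adjusted p = 0.0708). In the 2 FICC-Seq libraries where both could be measured it was higher in tRNA-Phe by 60.2 points on average.

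Other tRNA loci had patterns over the 14 libraries that resembled those of the 3 tRNAs. By Pearson correlation of log CPM, tRNA-Trp was most like tRNA-Thr-TGT-5-1 (r = 0.99), tRNA-Val-CAC-1-1 (0.95) and tRNA-Gln-TTG-3-1 (0.94), with a median of 0.02 over 233 loci. tRNA-His was most like tRNA-Arg-TCG-1-1 (0.91), tRNA-Cys-GCA-2-2 (0.88) and tRNA-Thr-TGT-2-1 (0.88), with a median of 0.26. tRNA-Phe was most like tRNA-Ala-AGC-1-1 (0.83), tRNA-Gly-CCC-2-1 (0.81) and tRNA-Arg-CCT-3-1 (0.80), with a median of 0.35 over 229 loci. These libraries share their depth and methods, so the correlations describe them and were not tested.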

How the data were processed

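FICC-Seq, iCLIP and miCLIP libraries were analysed from the values deposited by the authors, which are whole cDNA counts at single positions with a sign for the strand, not scaled for depth. Per the labels and the methods, the authors had trimmed reads, removed duplicates by random barcode with the iCount web server, mapped them to hg19 with bowtie and kept uniquely mapping reads, 1 file per library. No filter on the false discovery rate had been applied. Duplicate removal and unique mapping limit the counts of genes with identical copies.

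Members, lists and tests were chosen with earlier results of these data known. Absolute counts were summed on the strand of each cluster from 100 nt before to 25 nt after it. Position 54 was read from the hg19 sequence of each gene. Libraries held 7002 to 104605 counts, and 3 counts gave the limit for a count of 0. Shares required 5 counts in a library and carry 95% exact (Clopper-Pearson) intervals. The named loci are all 10 members, and 3 loci of the highest correlation per isotype.

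Locus counts were compared over the 5 experiments with limma (voom, own TMM factors), at 281 loci that reached the CPM of 10 counts in the median library in as many libraries as the smallest group. That group was miCLIP with 2 libraries, so counts in miCLIP alone could admit a locus. The planned negative binomial test was replaced by limma, although the absolute values are whole counts. Isotypes were compared on log2(CPM + 10) and on shares by two-sided exact permutation of libraries within cell lines (400 labelings), and with each other by exchange within libraries (64 assignments), adjusted by the Benjamini-Hochberg method over all 22 isotypes or 231 pairs in place of the planned smaller family. Nothing in the labels says that replicates were separate cultures, so p-values measure the spread between these libraries. Samples of the same replicate number deviated together in FICC-Seq of HEK293 and HAP1 (r = 0.36, 0.62 and 0.30 over 235 loci). They did so less in FICC-Seq and iCLIP of HAP1 (r = 0.10, 0.27 and 0.14) and in iCLIP of HEK293 and HAP1 (r = 0.13, 0.28 and 0.10). Between FICC-Seq and iCLIP of HEK293, r was 0.13, 0.11 and -0.03, and with miCLIP it ran from -0.10 to 0.14. Such a pairing comes from the data alone. Scaling, filter, window, placement of positions, block and single libraries were varied. Steps were tested on simulated data. The software was limma 3.58.1 in R 4.3.3, with scipy 1.17.1 and pysam 0.24.0 in Python 3.11.15, where pandas 2.3.3 read the tables, numpy 2.4.6 drew the simulations and matplotlib 3.10.9 the figures.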

Additional observations from a re-analysis of the deposited data

Results flagged for a closer look

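Genes of identical sequence outside the 10 loci, which the supplementary list does not hold, also carried miCLIP counts above the limit that a count of 0 allows. In miCLIP, 7 further copies of the tRNA-His gene held 219 counts, with 0 at 2 of the copies, 2 further copies of the tRNA-Phe-GAA-1 gene held 796 and 2 further copies of the tRNA-Trp-CCA-3-3 gene held 795. In FICC-Seq and iCLIP the same copies held fewer counts, 3 and 25 for tRNA-His, 16 and 7 for tRNA-Phe, and 32 and 17 for tRNA-Trp. These are raw counts, not scaled for the unlike depth of the methods. In iCLIP the further tRNA-His copies held as many counts as the listed tRNA-His genes, summed over the same stretch around each gene.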

How the results depend on the processing

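Of the 23 calls on single loci over iCLIP or miCLIP, 12 kept direction and call in every alternative that tested the locus. Most losses are given with the results. In addition, limma trend lost the calls over iCLIP of tRNA-Trp-CCA-2-1 in HEK293 (adjusted p = 0.0561) and tRNA-Trp-CCA-3-3 in HAP1 (0.0521), and over miCLIP those of tRNA-Phe-GAA-1-5 (0.368) and 1-6 (0.0582) in FICC-Seq. Without TMM factors tRNA-Trp-CCA-2-1 in HEK293 was also lost (0.0668). Without TMM factors, FICC-Seq over iCLIP turned at tRNA-Phe-GAA-1-3 (0.29) and 1-5 (0.10) in HEK293 and at 2-1 (0.41) in HAP1, and iCLIP over miCLIP turned at 2-1 (-0.57) and 3-1 (-0.37). With positions of a single count left out, tRNA-Phe-GAA-1-3 was 0.20 in HEK293 and 2-1 was -0.15 in iCLIP over miCLIP. With tRNA loci alone in the fit, 2-1 was 0.034 in HAP1, and within 10 nt 2-1 was 0.12 and tRNA-His-GTG-1-1 was 0.32. None of these values was called, and the cause was not tested. Over single libraries left out, tRNA-His-GTG-1-1 ran from -1.75 to 0.10 in HEK293, and in HAP1 tRNA-Phe-GAA-1-5 ran from -2.11 to 0.31, 1-6 from -1.79 to 0.14 and 2-1 from -0.29 to 0.19. In iCLIP over miCLIP, 2-1 ran from -0.26 to 0.74.

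The number of the 10 loci called in iCLIP against miCLIP was 8 without TMM factors, 3 with the replicate block (tRNA-His-GTG-1-7 and tRNA-Trp-CCA-3-3 lost) and 1 with limma trend on log2(CPM + 50), against 5. All tRNA loci called between cell lines were 14 by limma trend in FICC-Seq, against 36. In iCLIP they were 1 by limma trend and without miCLIP in the fit, and 4 with single counts left out and without the FICC-Seq replicates 2, against 2. Limma trend and the fits without the replicates 2 or without miCLIP were chosen after seeing the data. With single libraries left out, called loci ranged from 2 to 5 of 10 in FICC-Seq against iCLIP in HEK293, from 2 to 5 in iCLIP against miCLIP, from 0 to 1 between cell lines in FICC-Seq, from 19 to 37 of all tRNA loci there and from 1 to 3 in iCLIP.

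For CPM of FICC-Seq against iCLIP, scaling to the counts on tRNA loci gave -2.07 for tRNA-His, -0.56 for tRNA-Phe and -4.94 for tRNA-Trp. tRNA-Phe without tRNA-Phe-GAA-2-1 gave -0.90 (adjusted p = 0.0157). Without the replicates 2, the values were -2.36, -0.036 and -6.59. Single libraries left out gave -2.01 to -0.64 for tRNA-His, -0.16 to 0.095 for tRNA-Phe and -5.47 to -3.40 for tRNA-Trp. HEK293 against HAP1 turned to 0.067 for tRNA-Trp with single counts left out and to 0.11 for tRNA-His without the replicates 2, and ran from -0.91 to 0.46 for tRNA-His and from -1.53 to 0.84 for tRNA-Trp over single libraries.

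With position 53 placed on the top FICC-Seq site of the other cell line, the share difference of FICC-Seq from iCLIP was -30.6 points at 53 and 54 for tRNA-Trp and 22.8 at 58 for tRNA-His. Between cell lines this placement gave 4.02 for tRNA-His and 10.9 for tRNA-Trp at 53 and 54 and -22.8 for tRNA-His at 58, and the mean of locus shares gave 19.6, 3.14 and -19.6. For tRNA-Phe at 58, the difference was -25.9 with the replicate block, -25.2 without the replicates 2 and -26.9 to -25.1 over single libraries. For tRNA-His at 58 it ran from -10.7 to 6.25, and for tRNA-Trp at 53 and 54 between cell lines from -1.51 to 1.06.

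In FICC-Seq, tRNA-His minus tRNA-Phe was -6.26 and tRNA-Phe minus tRNA-Trp 8.58 without the replicates 2. With 16 assignments left, the exact permutation test could not give a p below 0.125 there, so that neither could be called. Without tRNA-Phe-GAA-2-1, tRNA-Phe minus tRNA-Trp was 4.69 and was not called. tRNA-His minus tRNA-Trp was 2.32 without the replicates 2, against 0.86. Over single libraries the first and second ran from -5.82 to -4.75 and from 5.61 to 7.30, and in iCLIP from -4.18 to -3.76 (tRNA-His minus tRNA-Phe), -2.09 to -1.71 (tRNA-His minus tRNA-Trp) and 1.95 to 2.10 (tRNA-Phe minus tRNA-Trp), where 5 libraries cannot reach the threshold. The planned negative binomial test was not run. The replicate block changed no other call than those named. Single libraries of FICC-Seq and iCLIP held 0 to 16 tRNA-His counts, which limits what can be seen for it.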
